A study of Mus musculus with 12 samples.

Results

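Interferon-stimulated genes were followed through 12 mouse liver RNA-seq libraries as 37 named genes that encode regulators, nucleic acid sensors and antiviral effectors of the interferon response. The members are a list of symbols: 36 were found in the count table under the listed symbol and 1, Ddx58 (the sensor RIG-I), under its later symbol Rigi. All 37 had counts in every library and passed the filter on low counts, out of 56441 genes in the table and 15228 genes tested. The rule is a list of symbols and uses no measured value, though the list was drawn up with earlier results of these data known.

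The study asked whether FH, the enzyme fumarate hydratase, protects the liver from fat accumulation, in 2 mouse models. Every animal was injected through the tail vein at 6 to 8 weeks of age with AAV8, an adeno-associated virus that the labels call liver-specific, either with FH (AAV8-FH) or as the vector alone (AAV8-vector). Livers of C57BL/6 mice were taken 1 month later after a 24 h fast, and livers of ob/ob mice, which lack functional leptin and become obese, after 1 month on a high-fat diet. Each of the 4 groups (fasted vector, fasted FH, ob/ob vector, ob/ob FH) held 3 libraries, so the lean, fasted livers and the obese livers differed in genotype, diet and feeding at once. All 12 livers carried virus and no uninjected liver is among the libraries, so levels are read against the empty vector. No promoter for FH is named in the labels. They also do not say that each library is a different animal, so a p-value here speaks only to the spread among these libraries.

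In the interferon response, cells that sense viral RNA or stray DNA release type I interferons, which bind a receptor on the same and neighbouring cells. JAK kinases then activate a complex that contains STAT2 and IRF9 and binds a promoter sequence called the interferon-stimulated response element and switches on a broad set of antiviral genes, while interferon gamma acts, in part through IRF1, on an overlapping set. In liver, hepatocytes, Kupffer cells (the resident macrophages) and sinusoidal endothelial cells all express parts of this programme, and a low tonic level is present without infection.

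Libraries held between 12231828 and 25873379 counts, and the 6 FH libraries (19107050 or more) were all deeper than the 6 vector libraries (14884323 or fewer). Levels are given as CPM, the counts of a gene divided by its library total and put on a common scale, with the totals adjusted by TMM factors, which were 1.12 to 1.37 for vector and 0.721 to 0.907 for FH libraries, and a floor of 3 counts stands at 0.141 to 0.213 CPM and covers counting error only. Fh1, the targeted gene, stood at 238 to 408 CPM with vector and 721 to 926 CPM with FH in the fasted livers, and at 106 to 142 against 616 to 802 CPM in the ob/ob livers. The labels give tissue liver and cell type hepatocyte, and all 14 hepatocyte markers and all of the Kupffer, endothelial, stellate and lymphocyte markers had counts in every group. The labels give no sex: the 3 ob/ob FH libraries held 2242 to 4992 Xist counts and 0 counts of 4 Y-linked genes, and the other 9 held 1 to 24 Xist counts and 2304 to 5181 Y-linked counts. FH and this sex marker difference cannot be told apart in the ob/ob comparison or in the difference between the models. In the fasted livers the 4 Y-linked genes had counts in every library but were lower with FH without overlap. Ratios of mean CPM ran from 1.53-fold (Ddx3y) to 2.07-fold (Kdm5d) lower. FH libraries also differed from vector libraries in genes outside the interferon response. The nuclear RNA Malat1 was 8.32-fold lower with FH in the fasted and 19.6-fold lower in the ob/ob livers, Neat1 was 5.78-fold and 9.67-fold lower, and albumin mRNA (Alb) was 3.06-fold and 3.14-fold higher, as ratios of mean CPM. In the fasted livers the clock gene Dbp was 12.5-fold higher and Arntl 7.84-fold lower with FH. In the ob/ob livers FH and vector libraries overlapped for both genes (log2 change -0.15 for Dbp and -0.13 for Arntl). Every FH library had fewer genes detected (18414 to 19922) than every vector library (20312 to 21629), although it was deeper. The part of these differences in the members' values was not tested. Ob/ob vector replicate 2 stood apart from the other 2 libraries of its group (Pearson r of log2 CPM across genes 0.961 and 0.954, against 0.987 between replicates 1 and 3). It also differed in the clock genes. Dbp stood at 35.7, 0.420 and 36.7 CPM in ob/ob vector replicates 1, 2 and 3, and Arntl at 4.35, 21.9 and 5.97 CPM. Hsd3b5, also outside the interferon response, stood at 0.0580, 334 and 0 CPM in the same order. Counts without replicate 2 are given with each comparison.

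In the fasted livers the members were mostly lower with FH, in the same libraries in which Malat1, Neat1 and Arntl were lower and Alb and Dbp higher. Of the 37, 18 fell (48.6%) and 3 rose (8.11%) at an adjusted p under 0.05 (edgeR quasi-likelihood test, Benjamini-Hochberg over all genes tested), while 27.6% of all genes tested fell and 27.4% rose (55% in either direction). The median log2 fold change of the members was -0.56, with a range of -2.93 (Oas2) to 0.89 (Ifitm3), beside -0.04 over all genes tested. In 16 members the 3 FH libraries all lay below the 3 vector libraries and in 4 they all lay above (30.6% and 30.4% of all genes tested). Without ob/ob vector replicate 2, whose spread enters the shared model, 18 fell and 4 rose, beside 4633 and 4602 of 16003 genes. The 18 dropped to 13 without fasted vector replicate 2 or fasted FH replicate 3, and to 14 without fasted FH replicate 2. Of all genes 4061, 3697 and 3555 fell in these fits, in that order, against 4208 with all libraries. Leaving out each library in turn gave 13 to 19 members that fell and 3 to 4 that rose. The members that fell most were Oas2, Ifi44, Trim30a, Ifit2 and Mx1, which all stood at -1.58 or lower.

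The members split in both directions in the ob/ob livers. With FH 11 rose (29.7%) and 9 fell (24.3%), beside 25.8% and 27.9% of all genes tested (53.7% in either direction), so the share called was near that of the whole table. The median was 0.22 (range -2.75 for Oas2 to 1.17 for Oasl1) beside -0.01 over all genes tested, and FH libraries lay entirely above vector libraries for 16 members and entirely below for 8 (30.6% and 31.2% of all genes). Without ob/ob vector replicate 2, 11 rose and 8 fell, with a median of 0.18, beside 3891 and 4094 of 16003 genes. Across the 2 models 3 members rose in both (Ifitm3, Irgm1, Rigi), 8 fell in both (Oas2, Mx1, Mx2, Iigp1, Trim30a, Herc6, Gbp7, Stat2), 10 passed the threshold downward in the fasted and not in the ob/ob livers, 8 passed it upward in the ob/ob and not in the fasted livers, 1 (Eif2ak2) passed it downward in the ob/ob and not in the fasted livers, and 7 passed it in neither.

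Scaling set the level against which these directions are read. On library totals, without TMM, the median of all genes moved by -0.67 in the fasted and -0.62 in the ob/ob comparison, with 1087 genes of the table higher and 8496 lower in the fasted livers and 1039 and 8119 in the ob/ob livers, against 4174 and 4208, and 3932 and 4245, with TMM. Among the members 0 were then called higher and 31 lower with FH in the lean, fasted livers, and 3 higher and 17 lower in the obese livers. All 18 members that fell in the fasted livers and all 9 that fell in the ob/ob livers were called lower on this scale too, while none of the 3 higher calls in the fasted livers and 3 of the 11 in the ob/ob livers (Ifitm3, Irgm1, Oasl1) were kept. With DESeq2's size factors the 18, 3, 11 and 9 calls were the same genes. Every "rose" in the text below is relative to the TMM level, and the plot of both scalings shows the shift.

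**Figure D1:**
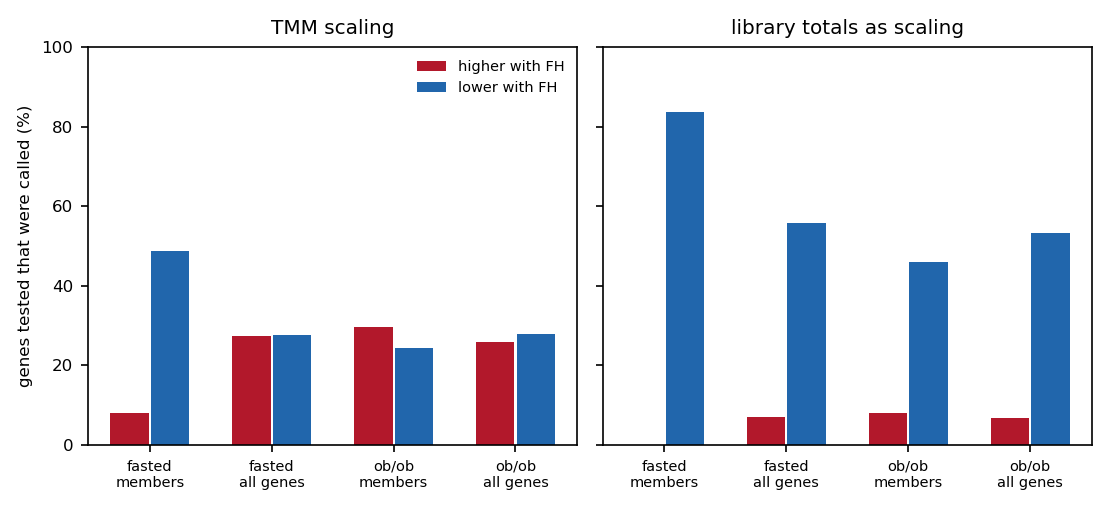
Percent of the members and of all genes tested that were called higher (red bars) or lower (blue bars) with FH in fasted and ob/ob livers, with TMM scaling (left) and on library totals (right). With TMM the bars for all genes are near equal in height (27.4% higher and 27.6% lower in the fasted livers), and on library totals the lower calls outnumber the higher ones for members and all genes alike.

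Markers of other liver cells also changed with FH, to an extent that differed between the lists. In the fasted livers 11 of 16 Kupffer and macrophage markers and all 13 sinusoidal endothelial markers fell with FH, none of either rose, and their medians were -0.67 and -0.93. With FH in obese livers 11 of the 16 Kupffer markers rose and 0 fell (median 0.98), and 9 of the 13 endothelial markers rose and 1 fell (median 0.80). On library totals the Kupffer list had 0 higher and 14 lower in the fasted livers but in the ob/ob livers 4 higher and 2 lower (median 0.36), and the endothelial list 0 higher and 13 lower, then 3 higher and 4 lower (median 0.18). The summed Kupffer level ran from 700.5 to 973 CPM in fasted vector, 476 to 553 in fasted FH, 594 to 758 in ob/ob vector and 961 to 1261 in ob/ob FH libraries, and the summed endothelial level from 519.8 to 624, 268 to 314, 345 to 452 and 542 to 647 CPM. The 14 lymphocyte markers, 12 of them tested, summed to 8.59 to 14.5, 5.68 to 6.81, 11.2 to 16.0 and 12.6 to 23.2 CPM. Of the 12, 0 rose and 1 fell in the fasted (median -0.86) and 3 rose and 1 fell in the ob/ob livers (median 0.73). On library totals 0 of the 12 were higher and 8 lower, then 1 higher and 2 lower. No marker of these lists was at 0 in any group. Of the 14 hepatocyte markers 12 rose and 1 fell in the fasted and 11 rose and 0 fell in the ob/ob livers, and on library totals 7 were higher and 2 lower, then 4 higher and 1 lower. Of 12 stellate markers 0 rose and 3 fell in the fasted and 8 rose and 1 fell in the ob/ob livers. On library totals 0 of them were higher and 10 lower, then 4 higher and 2 lower. Of 4 tested neutrophil markers 0 rose and 3 fell, then 2 rose and 1 fell, and on library totals 0 were higher and 4 lower, then 0 and 1. Of 7 tested monocyte and dendritic markers 0 rose and 2 fell, then 2 rose and 1 fell (median -0.02). On library totals 0 of the 7 were higher and 4 lower, then 1 and 2. Of 5 tested cholangiocyte markers 0 rose and 0 fell in either model, and on library totals 0 were higher and 2 lower, then 0 and 0. The part of these shifts in the members' values was not tested, and in whole tissue fewer cells of a type and less RNA per cell cannot be told apart.

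**Figure D2:**
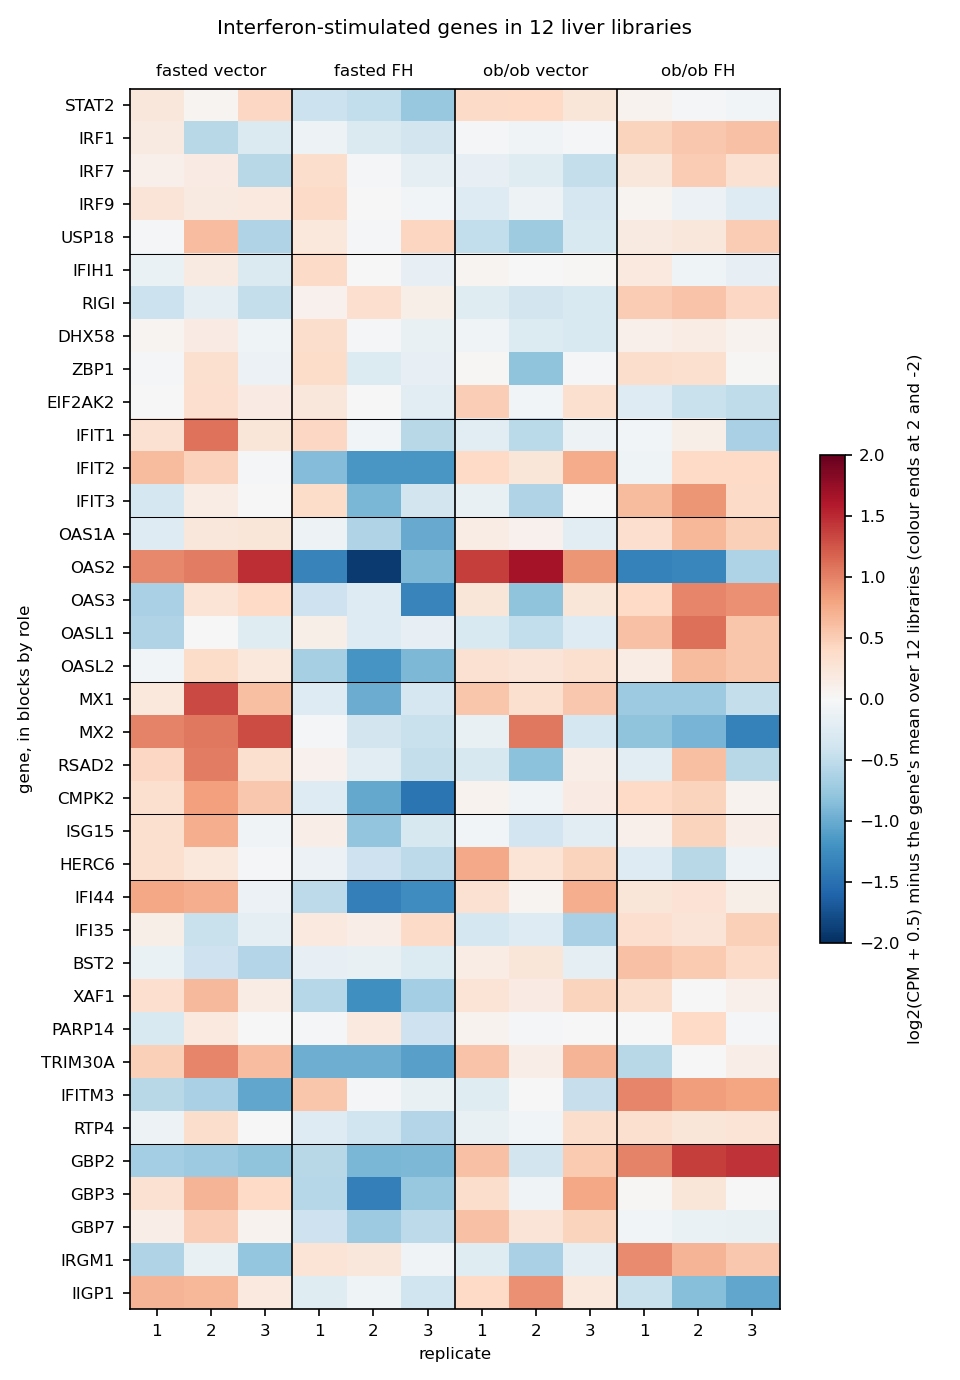
Level of each of the 37 members in the 12 libraries as log2(CPM + 0.5) relative to the member's mean over all libraries, ordered by role. The fasted FH libraries are lower for most effectors, with Ifitm3, Irgm1 and Rigi higher in FH libraries of both models and Oas2, Mx1 and Mx2 lower in both.

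Promoters of 28 members were found in the RefSeq table of GRCm38.p6 (250 bases before to 50 after each start), and they were searched for the core of the interferon-stimulated response element, spelled as GAAA, any 2 bases and GAAA on either strand (on the reverse strand TTTC, any 2 bases and TTTC). At least 1 match was present in 17 of the 28 members (60.7%, exact 95% binomial interval 40.6 to 78.5%), against 3.99% of the 27025 genes in that table. A longer form, which adds CT after the second GAAA and so contains the first motif, was present in 11 (39.3% against 0.303%), and the interferon gamma-activated site TTCNNNGAA, which can overlap the first motif, in 8 (28.6% against 9.55%). Members were chosen as interferon-induced, so a high share describes the list. The 17 with a match had a median of -0.66 in the fasted livers (3 rose, 7 fell) and 0.42 in the ob/ob livers (6 rose, 4 fell), and the 11 without had -0.56 (0 rose, 6 fell) and 0.18 (4 rose, 1 fell).

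The 4 windows below are examples from the members with a match that changed in the same direction in both models, 2 downward and 2 upward. The capitals mark the matches to the core motif on either strand. Trim30a (chr7:104446076-104446375, minus strand) has its match starting 2 bases after the start site (a second RefSeq start of Trim30a, with the window chr7:104465144-104465443, has a match 36 bases before it and is not shown), and Gbp7 (chr3:142530086-142530385, plus strand) 53 bases before it. Irgm1 (chr11:48871371-48871670, minus strand) has a pair of overlapping matches, 30 and 24 bases before the start, and Ifitm3 (chr7:141010695-141010994, minus strand) has matches 2 and 19 bases after it.
Trim30a: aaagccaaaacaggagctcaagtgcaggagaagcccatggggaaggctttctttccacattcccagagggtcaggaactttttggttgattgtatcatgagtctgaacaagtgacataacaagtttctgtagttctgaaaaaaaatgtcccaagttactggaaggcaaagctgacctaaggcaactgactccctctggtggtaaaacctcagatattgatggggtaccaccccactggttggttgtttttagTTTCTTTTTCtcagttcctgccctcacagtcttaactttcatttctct
Gbp7: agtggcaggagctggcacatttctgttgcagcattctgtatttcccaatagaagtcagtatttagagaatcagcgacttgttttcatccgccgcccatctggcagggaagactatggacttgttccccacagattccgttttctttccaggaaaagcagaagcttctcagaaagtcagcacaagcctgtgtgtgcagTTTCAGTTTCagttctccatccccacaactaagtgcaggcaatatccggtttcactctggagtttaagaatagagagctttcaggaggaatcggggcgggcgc
Irgm1: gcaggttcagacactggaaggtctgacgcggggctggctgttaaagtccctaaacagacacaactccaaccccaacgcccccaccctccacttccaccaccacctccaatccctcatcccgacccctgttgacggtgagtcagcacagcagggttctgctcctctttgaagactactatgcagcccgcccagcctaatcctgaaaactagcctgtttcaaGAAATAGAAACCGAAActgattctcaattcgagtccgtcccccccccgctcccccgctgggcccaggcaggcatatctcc
Ifitm3: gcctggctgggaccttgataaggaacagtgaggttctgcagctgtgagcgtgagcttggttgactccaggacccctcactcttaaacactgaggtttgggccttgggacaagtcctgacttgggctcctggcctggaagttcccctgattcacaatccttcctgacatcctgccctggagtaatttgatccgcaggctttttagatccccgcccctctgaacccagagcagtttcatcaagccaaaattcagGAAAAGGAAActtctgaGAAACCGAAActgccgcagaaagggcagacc
All 4 windows shown also hold the longer form, as does that of Rigi, which rose in both models. Stat2, which fell in both, has a window with the core match but without the longer form. The window of Herc6, which also fell in both, has no match. The windows of Rigi, Stat2 and Herc6 are not shown. The core match was thus present in members that fell and in members that rose. A match is a description of the sequence and not evidence that a factor bound it in these livers.

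Among the regulators, Stat2 fell in both models while Irf1, Irf7 and Usp18 rose in the ob/ob livers. Stat2, the interferon-specific subunit of the transcription complex, stood at 62.9, 55.2 and 71.6 CPM in the fasted vector libraries and at 39.5, 37.7 and 31.3 CPM with FH. Its ob/ob libraries held 69.6, 70.4 and 62.9 CPM with vector and 56.1, 51.7 and 51.6 CPM with FH. FH libraries were the lower ones in both models with no overlap. The log2 change was -0.81 (SE 0.13, adjusted p = 1.51e-04) in the fasted and -0.35 (SE 0.13, adjusted p = 0.0309) in the ob/ob livers. The ob/ob call was lost without any one of the ob/ob libraries of vector replicate 1 or 2 or FH replicate 2 or 3 (-0.35 to -0.30, adjusted p = 0.0711 to 0.097), and the difference between the models was 0.46 (adjusted p = 0.126).

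Irf9, the DNA-binding subunit of that complex, stood at 40.7, 38.4 and 38.9 CPM in fasted vector, 44.3, 34.1 and 32.6 CPM in fasted FH, 28.3, 31.5 and 26.6 CPM in ob/ob vector and 35.2, 31.1 and 28.3 CPM in ob/ob FH libraries. FH and vector libraries overlapped in both models (-0.09, adjusted p = 0.59, and 0.13, adjusted p = 0.438), so Irf9 did not pass where its partner Stat2 did. Irf1, the factor that carries the interferon gamma response, held 19.6 to 20.2 CPM with vector and 28.1 to 31.1 CPM with FH in the ob/ob livers, and rose by 0.58 (SE 0.16, adjusted p = 0.00706), a direction that turned on library totals (-0.04). Irf7, the factor that amplifies interferon production, rose by 0.65 (SE 0.19, adjusted p = 0.0106) from 17.9 to 22.3 CPM to 29.5 to 36.1 CPM. Usp18, the protease that removes ISG15 and dampens the receptor, rose by 0.85 (SE 0.26, adjusted p = 0.0147), which missed the threshold when ob/ob FH replicate 3 was left out (0.72, adjusted p = 0.0671). None of these 3 passed in the fasted livers, where Irf1 stood at -0.05, Irf7 at 0.13 and Usp18 at 0.14 (adjusted p = 0.794, 0.575 and 0.66).

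Of the 5 sensors Rigi rose in both models and Eif2ak2 fell in the ob/ob livers. Rigi encodes RIG-I, which detects viral RNA ends, and stood at 20.4, 24.1 and 19.7 CPM in fasted vector and 29.4, 35.1 and 30.1 CPM in fasted FH libraries. Obese livers held 23.3, 21.4 and 22.3 CPM with vector and 39.6, 41.6 and 37.1 CPM with FH. FH libraries lay above vector libraries in both, by 0.56 (SE 0.12, adjusted p = 0.0014) and 0.82 (SE 0.12, adjusted p = 7.38e-05), and on library totals the fasted value turned to -0.11 (adjusted p = 0.414). Ifih1, which encodes MDA5, the sensor of long double-stranded RNA, did not follow its relative. It held 25.97, 32.3 and 23.2 CPM in fasted vector, 37.1, 28.5 and 25.4 CPM in fasted FH, 29.4, 28.2 and 28.7 CPM in ob/ob vector and 32.5, 26.7 and 25.4 CPM in ob/ob FH libraries. Its groups overlapped in both models (0.16, adjusted p = 0.429, and -0.03, adjusted p = 0.892).

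Eif2ak2, the kinase PKR that halts translation on viral RNA, stood at 18.9, 24.2 and 21.5 CPM in fasted vector and 22.3, 19.0 and 16.2 CPM in fasted FH libraries, which overlapped (-0.17, adjusted p = 0.40). Its level in obese livers was 27.2, 18.4 and 23.9 CPM with vector and 15.9, 13.8 and 13.3 CPM with FH. There it fell by 0.69 (SE 0.17, adjusted p = 0.00322) with no overlap, and the difference between the models was -0.52 (adjusted p = 0.185). Dhx58, which encodes LGP2, a regulator of the other RNA sensors, and Zbp1, a sensor of Z-form nucleic acid that can start cell death, passed in neither model (0.02 and -0.08 fasted, 0.34 and 0.50 ob/ob).

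The IFIT genes encode proteins that bind foreign RNA and block its translation. The calls of the 3 differed, though all 3 changes were negative in the fasted livers (-1.65 to -0.16). Ifit2 stood at 7.73, 6.82 and 4.72 CPM in fasted vector and 2.40, 1.87 and 1.88 CPM in fasted FH libraries. Among obese livers it held 6.499, 5.78 and 8.37 CPM with vector and 4.51, 6.45 and 6.48 CPM with FH. The fasted FH libraries were the 3 lowest of the 12, and the ob/ob groups overlapped. Ifit2 fell by 1.65 (SE 0.25, adjusted p = 1.22e-04) in the fasted livers and stood at -0.24 (adjusted p = 0.386) in the ob/ob livers.

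Ifit3 held 8.73, 12.5 and 11.2 CPM in fasted vector and 14.6, 5.75 and 8.68 CPM in fasted FH libraries, a wide overlap (-0.16, adjusted p = 0.646). Its ob/ob libraries held 10.2, 7.31 and 11.2 CPM with vector and 17.8, 21.2 and 14.8 CPM with FH. It rose there by 0.91 (SE 0.28, adjusted p = 0.0134), which missed the threshold when ob/ob FH replicate 2 was left out (0.78, adjusted p = 0.0556). Ifit1 stood at 8.52, 15.02 and 8.18 CPM, 9.19, 6.55 and 4.45 CPM, 5.80, 4.52 and 6.28 CPM, and 6.53, 7.44 and 4.18 CPM in the groups in the same order. The groups overlapped in both FH comparisons (-0.66, adjusted p = 0.0794, and 0.13, adjusted p = 0.752), and the fasted value passed without fasted vector replicate 1 (-0.85), fasted FH replicate 1 (-0.94) or ob/ob FH replicate 3 (-0.73). Ifit2 and Ifit3 are next to each other on chromosome 19, and Ifit3 has a near-identical copy, Ifit3b, with which reads can be split.

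The OAS genes encode sensors that turn double-stranded RNA into a signal for RNase L, with Oasl1 and Oasl2 as relatives that lack or changed that activity. Oas2 was the member with the largest change in both models. It stood at 7.10, 7.48 and 10.4 CPM in fasted vector and 1.06, 0.535 and 1.61 CPM in fasted FH libraries, and at 9.75, 11.98 and 6.75 CPM in ob/ob vector and 1.04, 1.09 and 2.07 CPM in ob/ob FH libraries. Every FH library was below every vector library. The change was -2.93 (SE 0.37, adjusted p = 3.03e-05, 7.61-fold lower) in the fasted and -2.75 (SE 0.35, adjusted p = 3.12e-05, 6.72-fold lower) in the ob/ob livers. These rest on 382 counts over the 3 fasted vector and 53 over the 3 fasted FH libraries, and on 525 and 85 in the ob/ob livers.

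Oasl2 stood at 5.68, 7.78 and 6.91 CPM in fasted vector, 3.54, 2.34 and 2.95 CPM in fasted FH, 7.43, 7.20 and 7.49 CPM in ob/ob vector and 6.58, 9.47 and 8.97 CPM in ob/ob FH libraries. The fasted FH libraries were again the 3 lowest of all 12. It fell by 1.21 (SE 0.21, adjusted p = 3.18e-04) in the fasted livers and stood at 0.18 (adjusted p = 0.457) in the ob/ob livers. Oasl1, which represses Irf7 translation, stood at 5.75, 9.04 and 7.51 CPM, 9.83, 7.42 and 7.99 CPM, 7.20, 6.25 and 7.49 CPM, and 13.7, 19.9 and 13.4 CPM in the groups in that order. Its ob/ob FH libraries were the 3 highest of all 12, with a rise of 1.17 (SE 0.20, adjusted p = 3.29e-04, 2.25-fold) against 0.17 (adjusted p = 0.497) in the fasted livers. Oasl1 and Oasl2 are neighbours on chromosome 5, so of these adjacent genes one passed downward in the lean livers and the other upward in the obese livers.

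Oas1a fell by 0.74 (SE 0.28, adjusted p = 0.0398) in the fasted livers, from 2.77 to 4.12 CPM to 1.45 to 3.11 CPM, with overlapping libraries. That call was lost without any one of fasted vector replicate 2 or 3, fasted FH replicate 2 or 3, the ob/ob libraries of vector replicate 1 or FH replicate 2 (-0.73 to -0.49, adjusted p = 0.0512 to 0.17). Oas3, the neighbour of Oas2, was the lowest member per length of transcript and passed in neither model (-1.06, SE 0.57, and 1.04, SE 0.50), with 31 to 155 counts over the 3 libraries of a group. Reads can be shared among the Oas1 copies, and Oas2 and Oasl1 overlap annotated genes on the other strand, from which they cannot be separated without knowing the strand setting of the counting.

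Mx1, Mx2, Rsad2 and Cmpk2 all fell in the fasted livers, and the Mx genes fell in the ob/ob livers too. Mx1 encodes a nuclear antiviral GTPase, which many laboratory mouse strains carry in a defective form, and stood at 2.34, 5.63 and 3.26 CPM in fasted vector, 1.56, 0.736 and 1.45 CPM in fasted FH, 3.13, 2.58 and 3.09 CPM in ob/ob vector and 0.984, 0.989 and 1.27 CPM in ob/ob FH libraries. FH was below vector without overlap in both models, by -1.58 (SE 0.36, adjusted p = 0.00201) and -1.43 (SE 0.35, adjusted p = 0.00388). Mx2, its cytoplasmic relative, stood at 11.1, 11.6 and 13.9 CPM, 5.23, 4.01 and 3.75 CPM, 4.76, 11.6 and 4.08 CPM, and 2.85, 2.55 and 1.78 CPM in the same order. Its changes were -1.50 (SE 0.33, adjusted p = 0.00198) and -1.51 (SE 0.35, adjusted p = 0.00245), and the highest ob/ob vector library was replicate 2, the one that stood apart. Without it the ob/ob change of Mx2 was -0.87 (adjusted p = 0.00727). The difference between the models missed the threshold for Mx1 (0.15, adjusted p = 0.892) and Mx2 (-0.01, adjusted p = 0.99), and for Mx2 it ran from -0.28 to 0.61 when single libraries were left out, with 0.61 (adjusted p = 0.245) without ob/ob vector replicate 2.

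Cmpk2, a mitochondrial nucleotide kinase, stood at 8.73, 12.6 and 10.3 CPM in fasted vector and 5.73, 3.14 and 2.20 CPM in fasted FH libraries. The ob/ob libraries held 7.31, 6.57 and 7.80 CPM with vector and 9.27, 9.57 and 7.28 CPM with FH. The fasted groups did not overlap and the ob/ob groups did. Cmpk2 fell by 1.53 (SE 0.28, adjusted p = 4.62e-04) in the fasted livers and stood at 0.27 (adjusted p = 0.409) in the ob/ob livers. Rsad2, its neighbour on chromosome 12, encodes viperin, an enzyme that makes a chain-terminating nucleotide. It held 16.1, 24.7 and 14.96 CPM, 12.7, 10.2 and 8.47 CPM, 9.46, 6.57 and 13.1 CPM, and 10.2, 18.4 and 7.93 CPM in the groups in the same order.

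Rsad2 fell by 0.83 (SE 0.32, adjusted p = 0.039) in the fasted livers, where the groups did not overlap, and stood at 0.32 (adjusted p = 0.411) in the ob/ob livers. The fasted call was lost without fasted vector replicate 2, fasted FH replicate 2 or 3, or ob/ob vector replicate 1 (-0.82 to -0.56, adjusted p = 0.0512 to 0.188). The neighbours Rsad2 and Cmpk2 thus both fell in the lean livers and neither passed in the obese livers.

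Of the ISG15 system, Isg15 encodes the ubiquitin-like modifier and Herc6 the ligase that attaches it in mice. Isg15 stood at 7.95, 10.7 and 5.92 CPM in fasted vector and 6.93, 3.41 and 4.93 CPM in fasted FH libraries, which overlapped. The ob/ob libraries held 6.03, 4.68 and 5.29 CPM with vector and 6.78, 8.74 and 6.90 CPM with FH. The fasted change was -0.69 (SE 0.26, adjusted p = 0.0399), and the ob/ob libraries did not overlap but missed the threshold at 0.49 (SE 0.27, adjusted p = 0.127). The fasted call was lost without fasted vector replicate 1 or 2, fasted FH replicate 2 or 3, or ob/ob vector replicate 1 (-0.76 to -0.43, adjusted p = 0.0505 to 0.207).

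Herc6 stood at 10.9, 9.995 and 8.37 CPM in fasted vector, 7.85, 6.29 and 5.79 CPM in fasted FH, 14.7, 10.4 and 11.8 CPM in ob/ob vector and 7.10, 5.67 and 7.93 CPM in ob/ob FH libraries. FH libraries were below vector libraries in both models without overlap. The fasted change was -0.56 (SE 0.19, adjusted p = 0.0259) and the ob/ob change -0.83 (SE 0.19, adjusted p = 0.00225). Without fasted vector replicate 1 or 2 or fasted FH replicate 2 or 3 the fasted call was lost (-0.53 to -0.46, adjusted p = 0.0578 to 0.101).

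Among the other effectors, Ifitm3 rose in both models. Ifitm3, a membrane protein that blocks virus entry from endosomes, was also the most abundant member per length of transcript, at 345 CPM per kilobase of exon over the 12 libraries, ahead of Bst2 at 76.0 and Iigp1 at 45.0, while every other member stood at 9.29 or lower. It held 145, 136 and 103 CPM in fasted vector, 312, 207 and 191 CPM in fasted FH, 181, 211 and 154 CPM in ob/ob vector and 419, 382 and 366 CPM in ob/ob FH libraries. Every FH library was above every vector library of its model. The rises were 0.89 (SE 0.20, adjusted p = 0.00176) and 1.10 (SE 0.20, adjusted p = 4.02e-04), and on library totals the fasted value was 0.23 and not called (adjusted p = 0.31).

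Bst2, or tetherin, which holds budding virus at the cell surface, stood at 60.5, 49.9 and 44.3 CPM in fasted vector, 59.6, 60.1 and 55.0 CPM in fasted FH, 74.0, 79.0 and 58.6 CPM in ob/ob vector and 99.7, 95.5 and 87.2 CPM in ob/ob FH libraries. The fasted groups overlapped (0.18, adjusted p = 0.304) and the ob/ob groups did not. Bst2 rose by 0.42 (SE 0.14, adjusted p = 0.0221) in the ob/ob livers, a direction that turned on library totals (-0.21, adjusted p = 0.194) and a call that was lost without any one of the ob/ob libraries of vector replicate 3 or FH replicate 1 or 2 (0.32 to 0.41, adjusted p = 0.055 to 0.0875). Bst2 is also a surface marker of plasmacytoid dendritic cells. The other 7 markers of that type had counts in every group, 5 were tested, and of these 4 fell and 0 rose in the fasted and 3 fell and 0 rose in the ob/ob livers. The 7 summed to 31.3 to 42.2 CPM in fasted vector, 18.6 to 31.6 in fasted FH, 37.1 to 124 in ob/ob vector and 73.9 to 128.5 in ob/ob FH libraries. Their sum was thus not lower with FH in the ob/ob livers, where Ly6d held 2898 counts with vector and 4783 with FH.

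Trim30a, a regulator of inflammatory signalling, stood at 11.4, 16.2 and 12.6 CPM in fasted vector and 3.82, 3.81 and 3.54 CPM in fasted FH libraries. Obese livers held 12.2, 8.83 and 13.2 CPM with vector and 5.28, 8.07 and 8.87 CPM with FH. The fasted FH libraries lay close together and far below vector, and the ob/ob groups overlapped by 1 library each. Trim30a fell by 1.85 (SE 0.23, adjusted p = 2.32e-05) in lean and by 0.62 (SE 0.21, adjusted p = 0.0248) in obese livers, and the second call did not hold without any one of the ob/ob libraries of vector replicate 1 or 3 or FH replicate 1 (-0.55 to -0.44, adjusted p = 0.0779 to 0.101).

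Ifi44, a cytoplasmic protein that limits virus replication, stood at 5.25, 5.03 and 2.59 CPM in fasted vector, 1.84, 0.802 and 0.911 CPM in fasted FH, 3.66, 3.00 and 5.02 CPM in ob/ob vector and 3.47, 3.59 and 3.15 CPM in ob/ob FH libraries. It fell by 1.87 (SE 0.36, adjusted p = 6.63e-04) in the fasted livers without overlap and stood at -0.20 (adjusted p = 0.629) in the ob/ob livers. Xaf1, a factor that promotes cell death, gave the same contrast. It held 8.44, 10.7 and 7.38 CPM, 4.24, 2.54 and 3.91 CPM, 8.07, 7.46 and 9.11 CPM, and 8.49, 6.56 and 7.14 CPM in the same order. The fasted groups did not overlap (-1.31, SE 0.22, adjusted p = 2.27e-04) and the ob/ob groups did (-0.15, adjusted p = 0.553).

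The remaining effectors completed this role. Ifi35, a partner of the factor NMI, rose by 0.81 (SE 0.17, adjusted p = 0.00122) in the ob/ob livers, from 6.91 to 9.197 CPM to 13.5 to 15.7 CPM, and stood at 0.42 (adjusted p = 0.0514) in the fasted livers. That fasted value passed without fasted vector replicate 1 (0.53) or without replicate 2 or 3 of ob/ob vector (0.43 and 0.43). Rtp4, a chaperone that restrains the response, fell by 0.54 (SE 0.17, adjusted p = 0.0172) in the fasted livers, which missed the threshold when fasted vector replicate 2 (-0.37, adjusted p = 0.10) or fasted FH replicate 3 (-0.45, adjusted p = 0.0752) was left out. Parp14, an ADP-ribosyltransferase, was at 23.4 to 41.2 CPM in all 12 libraries and passed in neither model (-0.04, adjusted p = 0.871, and 0.13, adjusted p = 0.559).

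The interferon-inducible GTPases, which attack vacuoles that hold microbes, were split as well. Iigp1, which coats such vacuoles, had the highest CPM in vector libraries of any member and stood at 386, 383 and 276 CPM in fasted vector and 205, 228 and 183 CPM in fasted FH libraries. Obese livers held 319, 457 and 281 CPM with vector and 178, 134 and 117 CPM with FH. FH libraries were the lower ones in both models without overlap. Iigp1 fell by 0.76 (SE 0.21, adjusted p = 0.00721) in lean and by 1.30 (SE 0.21, adjusted p = 1.92e-04) in obese livers.

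Irgm1, which restrains the vacuole-coating GTPases such as Iigp1, moved the other way. It stood at 30.5, 42.2 and 27.3 CPM in fasted vector, 56.4, 55.0 and 44.6 CPM in fasted FH, 39.4, 29.5 and 40.6 CPM in ob/ob vector and 90.6, 75.5 and 68.5 CPM in ob/ob FH libraries, with no overlap in either model. It rose by 1.10 (SE 0.18, adjusted p = 2.19e-04) in the ob/ob livers and by 0.64 (SE 0.18, adjusted p = 0.00863) in the fasted livers, where the value was -0.02 on library totals and leaving out fasted vector replicate 1 ended the call (0.53, adjusted p = 0.0519). Irgm1 was thus higher in the same FH libraries in which Iigp1 was lower.

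Gbp7, a guanylate-binding protein, stood at 10.8, 13.9 and 10.3 CPM in fasted vector, 7.21, 5.75 and 6.70 CPM in fasted FH, 14.97, 11.9 and 13.5 CPM in ob/ob vector and 9.43, 8.90 and 8.83 CPM in ob/ob FH libraries. No FH library reached a vector library of its model. It fell by 0.83 (SE 0.16, adjusted p = 7.12e-04) and 0.57 (SE 0.16, adjusted p = 0.00744). Its neighbour Gbp3 on chromosome 3 fell by 1.46 (SE 0.26, adjusted p = 4.19e-04) in the fasted livers and stood at -0.32 (adjusted p = 0.288) in the ob/ob livers. Gbp2, also of this family, rose by 1.03 (SE 0.24, adjusted p = 0.00254) in the ob/ob livers, from 4.41 to 9.05 CPM to 12.1 to 16.9 CPM, and stood at -0.06 (adjusted p = 0.868) in the fasted livers. Guanylate-binding proteins are close copies of one another, as are the Mx, Trim30 and IRG genes, so reads can be split between copies. Annotated genes on the other strand also overlap Irf1, Irf7, Usp18, Dhx58, Eif2ak2, Herc6, Ifi35, Trim30a, Rtp4 and Gbp2, so part of their counts could come from those genes.

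**Figure D3:**
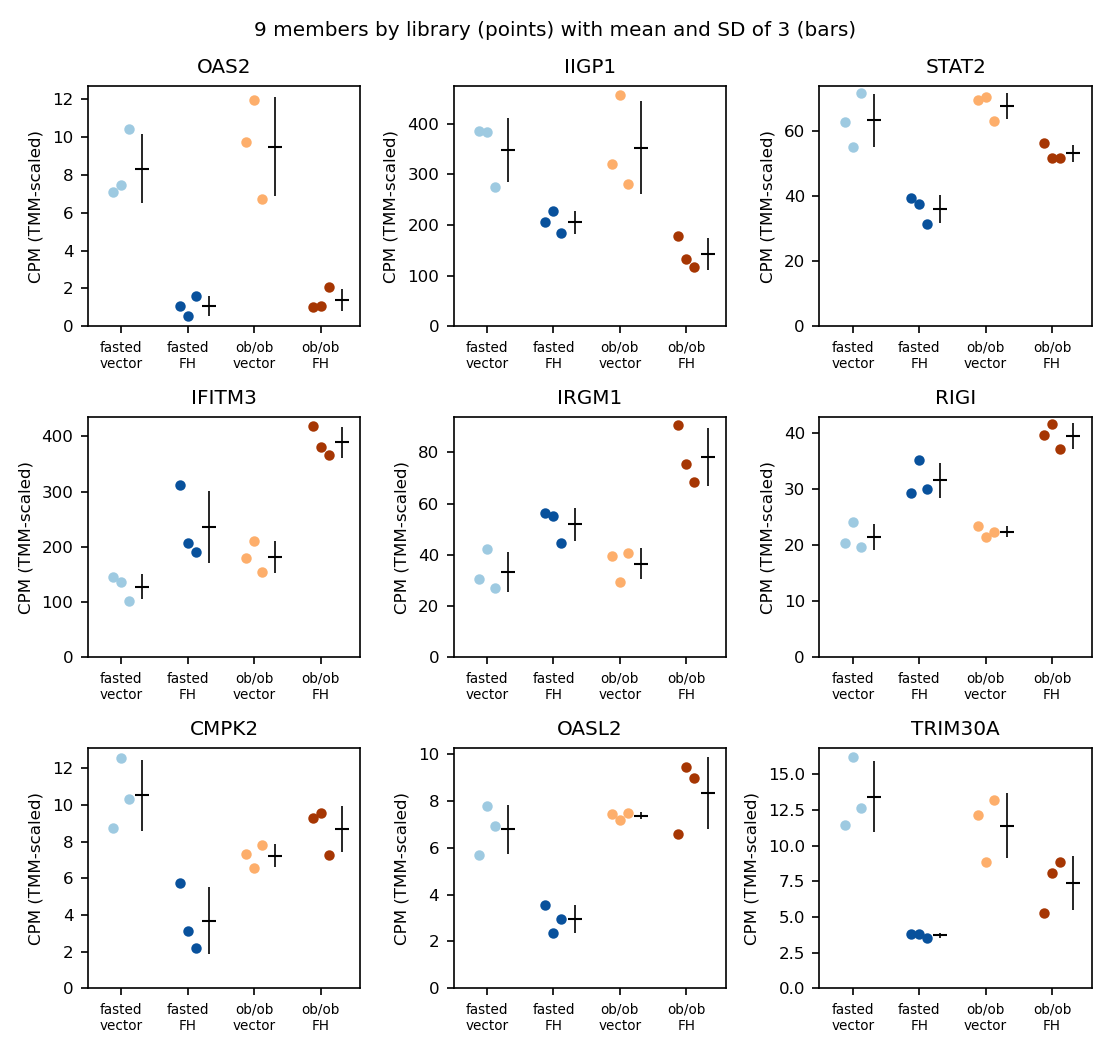
CPM of 9 members in each of the 12 libraries, by group (points are libraries, the black marks beside them give the mean and SD of 3, and each axis starts at 0). Oas2, Iigp1 and Stat2 are lower with FH in both models, Ifitm3, Irgm1 and Rigi higher in both, and Cmpk2, Oasl2 and Trim30a are lowest in fasted FH.

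The difference between the models asked whether FH changed a member by a different amount in the obese than in the lean, fasted livers. It was positive for 32 of 37 members, with a median of 0.59 against -0.11 over all genes tested. Past the threshold were 7 members, all higher in the ob/ob livers (18.9%, beside 4.77% of all genes called higher and 3.66% called lower, 8.43% in all), and 0 were lower. Without adjustment 17 were higher and 1 lower at p under 0.05, while 3795 of the 15228 genes tested passed that level in either direction. DESeq2 called 12 higher and 0 lower, beside 947 higher and 749 lower of the 14332 genes it tested. The edgeR count of 7 dropped to 3 when fasted vector replicate 2, fasted FH replicate 3 or ob/ob vector replicate 1 was left out. Of all genes 539, 578 and 489 were then higher, in that order, against 726 with all libraries. The count of members dropped to 2 when fasted FH replicate 2, ob/ob FH replicate 2 or ob/ob FH replicate 3 was left out. Of all genes 448, 376 and 461 were then higher, so calls dropped across the table too. Leaving out ob/ob vector replicate 2 gave 5 members, beside 875 of 16003 genes higher.

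Cmpk2 (1.80, SE 0.38, adjusted p = 0.0136) and Oasl2 (1.39, SE 0.29, adjusted p = 0.0115) kept their call without any single library. Ifi44 (1.67, SE 0.48, adjusted p = 0.0474), Ifit2 (1.41, SE 0.34, adjusted p = 0.0233), Trim30a (1.23, SE 0.31, adjusted p = 0.028), Xaf1 (1.15, SE 0.30, adjusted p = 0.0311) and Oasl1 (0.99, SE 0.29, adjusted p = 0.0496) did not. Ifi44 lost it without any library other than fasted vector replicate 3, fasted FH replicate 1 or ob/ob vector replicate 3 (1.47 to 1.77, adjusted p = 0.0547 to 0.117). Oasl1 lost it without any library other than fasted vector replicate 1 and the first ob/ob FH library (0.79 to 1.14, adjusted p = 0.0516 to 0.133). Trim30a lost it without fasted vector replicate 2 or 3, any fasted FH library, or ob/ob FH replicate 2 or 3 (1.07 to 1.27, adjusted p = 0.0516 to 0.0753). Ifit2 lost it without fasted vector replicate 2, fasted FH replicate 2 or 3, or the obese libraries of vector replicate 1 or FH replicate 2 or 3 (1.33 to 1.36, adjusted p = 0.0505 to 0.0669). Xaf1 lost it without fasted vector replicate 2, fasted FH replicate 2, ob/ob vector replicate 1 or any ob/ob FH library (0.96 to 1.23, adjusted p = 0.0522 to 0.0718).

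The 7 members differ in how they arrived there. Cmpk2, Oasl2, Ifi44, Ifit2 and Xaf1 fell in the fasted livers and did not pass in the ob/ob livers, Trim30a fell in both and by more in the fasted livers, and Oasl1 rose in the ob/ob livers alone. For Oas2, the member with the largest change in each model, the difference was 0.18 (adjusted p = 0.869). Among members not called here, Irf1, Ifit3, Oas1a, Isg15, Rtp4 and Gbp3 each passed without 1 library or another: Irf1 (0.79) without fasted vector replicate 2, Ifit3 (1.49) and Isg15 (1.45) without fasted FH replicate 1, Oas1a without fasted vector replicate 1 (1.49) or fasted FH replicate 1 (1.61), and Rtp4 (0.94) and Gbp3 (1.39) without ob/ob vector replicate 3. In this comparison 12 of 16 Kupffer markers and 13 of 13 endothelial markers were also higher (medians 1.75 and 1.56). So were 9 of 12 stellate markers (median 1.26) and 3 of 4 tested neutrophil markers (median 2.64). Of 12 tested lymphocyte markers (median 1.67), 5 tested cholangiocyte markers (median 0.62) and 14 hepatocyte markers (median -0.03) 0 were higher. Of 7 tested monocyte and dendritic markers 1 was higher, and of 5 tested plasmacytoid dendritic markers 1. The part of these lists in the members' difference was not tested.

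**Figure D4:**
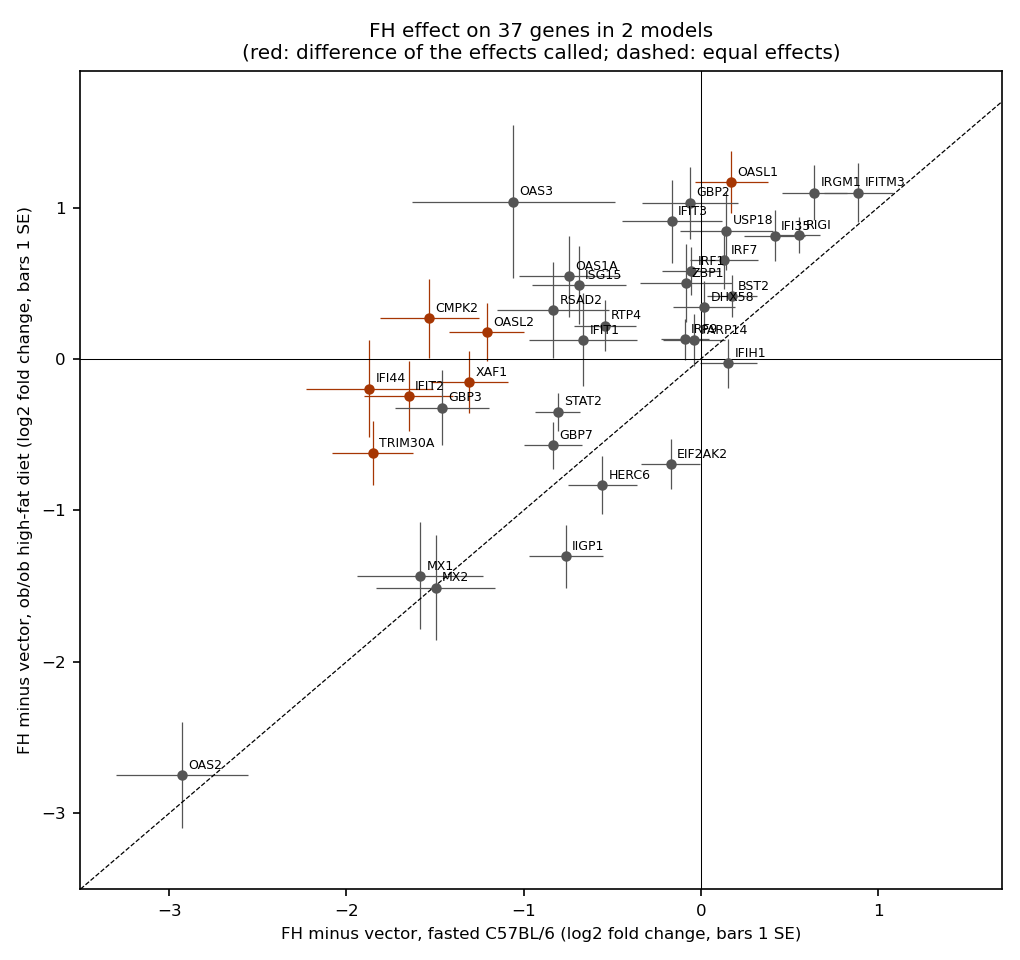
Log2 fold change of each member (FH over vector) in ob/ob livers against that in fasted C57BL/6 livers, with standard errors. Of the 37 members 32 lie above the line of equal change, the 7 called for the difference are marked, and Oas2 lies near the line at the lower left.

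Between the vector libraries of the models few members differed. Gbp2 was higher in ob/ob than in fasted livers by 1.14 (SE 0.26, adjusted p = 0.00824), with 4.41 to 9.05 against 3.12 to 3.48 CPM, and Bst2 by 0.45 (adjusted p = 0.0407). Ifit1 was lower by -0.94 (SE 0.30, adjusted p = 0.0493) and Irf9 by -0.45 (SE 0.13, adjusted p = 0.0354). These 4 members (5.41% in each direction) stand beside 9.36% of all genes called higher and 8.18% called lower, and the median was -0.09. Without ob/ob vector replicate 2 the calls were Gbp2 upward (1.41) and Irf9 (-0.52) and Mx2 (-1.46, adjusted p = 3.20e-04) downward, while Mx2 with all libraries stood at -0.84 (adjusted p = 0.0908). Of the 16003 genes tested without that replicate 1872 were higher and 1546 lower.

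Gbp2 kept its call without any single library. Bst2 lost it without any library other than fasted vector replicate 1 or ob/ob vector replicate 3 (0.35 to 0.45, adjusted p = 0.0523 to 0.156). Ifit1 lost it without fasted vector replicate 2 or 3, fasted FH replicate 2, any ob/ob vector library, or replicate 1 or 2 of ob/ob FH (-1.09 to -0.59, adjusted p = 0.0551 to 0.23). Irf9 lost it without any fasted vector library, replicate 1 or 3 of ob/ob vector, or replicate 2 of ob/ob FH (-0.47 to -0.39, adjusted p = 0.0534 to 0.121). Rsad2 (-0.94 with all libraries) passed without replicate 3 of ob/ob vector or replicate 2 or 3 of ob/ob FH, Usp18 (-0.61) without fasted vector replicate 3 and Ifitm3 (0.51) without fasted FH replicate 1. On library totals 3 members were higher and 0 lower, beside 2737 higher and 641 lower of all 15228 genes tested.

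Genes around the members in the pathway were read from lists by known function. Of 21 interferon genes 17 had no count in any library, and the sum over all 21 was 0 to 5 counts per library, so no ligand was measurable at this depth. Of 4 receptor genes tested, Ifnar1 was higher with FH in both models (0.49, adjusted p = 0.00217, and 0.28, adjusted p = 0.0438) and turned to -0.18 and -0.34 on library totals. Of 12 genes of JAK-STAT signalling and its feedback, 6 rose and 1 fell in the fasted and 6 rose and 2 fell in the ob/ob livers. Of all genes tested 27.4% rose and 27.6% fell in the fasted livers, and 25.8% and 27.9% in the ob/ob livers. The balance of the 12 genes turned on library totals to 1 higher and 4 lower in each model. The phosphatase gene Ptpn2 fell by 0.49 and 0.89 (adjusted p = 0.00364 and 5.6e-05).

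Of 20 tested genes of upstream sensing 5 rose and 7 fell in the fasted livers and 5 rose and 4 fell in the ob/ob livers. The same shares of all genes stand beside this list (27.4% and 27.6%, then 25.8% and 27.9%). On library totals 0 of the 20 were higher and 12 lower, then 1 higher and 13 lower. Of all 15228 genes 1087 were then higher and 8496 lower in the fasted livers, and 1039 and 8119 in the ob/ob livers. Mavs, the adaptor of the RNA sensors, rose in both (0.91 and 0.92), while Aim2, a DNA sensor, fell in both (-2.58 and -1.76). A list of 60 other interferon-stimulated genes, 58 of them tested, had 30 that fell and 10 that rose in the fasted livers (median -0.75), and 13 that fell and 22 that rose in the ob/ob livers (median 0.23). Gbp9 fell by 3.03 in lean and by 1.17 in obese livers, and its difference was 1.86 (adjusted p = 0.00113). For the difference 16 of the 58 were higher and 0 lower (median 0.88), beside 4.77% and 3.66% of all genes tested (median -0.11). With library totals as the scale that list had 0 genes up and 44 down in lean livers and 6 up and 27 down in obese livers. For the difference it had 17 up and 0 down, beside 722 up and 361 down of all 15228 genes.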

How the data were processed

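The authors deposited 1 table of raw read counts per gene for 12 mouse liver libraries, and the unit is whole-number counts with no normalization. STAR 2.7.11a and the build GRCm39 are named in the submitters' processing notes. Per the labels' protocols, RNA was extracted with TRIzol and libraries were made with a stranded Illumina mRNA kit. How reads were counted, with which annotation and strand setting, is not given in the sources used. Groups and replicate numbers came from the sample titles, and all columns were matched.

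The counts were filtered with filterByExpr (10 counts, 15 in total), which kept 15228 of 28566 genes with any count, and scaled with TMM. A single edgeR 4.0.16 quasi-likelihood model of the 4 groups (8 residual degrees of freedom, R 4.3.3) gave all 4 comparisons, with Benjamini-Hochberg adjustment over all genes tested and a threshold of 0.05. The SE is the log2 change divided by the square root of F. The members, roles, pathway lists and marker lists were chosen with earlier results of these data known. Members called in both FH comparisons, called for the difference, called against the majority direction, or among the 2 highest of their role are given in every library. Alternatives were other scalings, DESeq2 1.42.0, other filters, a replicate block, separate fits and leaving out each library. The script was tested on simulated counts. Exon lengths, neighbours and opposite-strand genes came from GENCODE M21 (GRCm38) by symbol. Total counts per library (12231828 to 25873379) set the precision of low genes.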

Additional observations from a re-analysis of the deposited data

Results flagged for a closer look

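In 7 of the 37 members (18.9%, beside 8.43% of all genes tested) the change with FH differed between the ob/ob and the fasted livers. This rests on a test of the difference itself (edgeR, adjusted over all genes). On the log2 scale the ob/ob change minus the fasted change was 1.80 for Cmpk2, 1.67 for Ifi44, 1.41 for Ifit2, 1.39 for Oasl2, 1.23 for Trim30a, 1.15 for Xaf1 and 0.99 for Oasl1. Cmpk2 and Oasl2 kept the call without any single library, and the other 5 lost it without at least 1. Xist and Y-linked counts separate the ob/ob FH libraries from the other 9, so this marker and the difference cannot be told apart. In the same comparison 12 of 16 Kupffer, 13 of 13 endothelial, 9 of 12 stellate and 3 of 4 tested neutrophil markers were higher. Of 12 tested lymphocyte, 5 tested cholangiocyte and 14 hepatocyte markers 0 were. Of 7 tested monocyte and dendritic markers 1 was higher, and of 5 tested plasmacytoid dendritic markers 1. The part of these lists was not tested.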

How the results depend on the processing

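On library totals in place of TMM the members stood at 0 higher and 31 lower in the fasted livers (median -1.22) and at 3 and 17 in the ob/ob livers (median -0.40). Between the vector groups they stood at 3 higher and 0 lower (median 0.11). The medians of all genes tested on this scale were -0.71, -0.63 and 0.21. Values that changed sign with a call on either scale were, in the fasted livers, Irf7 -0.53, Ifih1 -0.51, Rigi -0.11, Dhx58 -0.65, Bst2 -0.49 and Irgm1 -0.022, and in the ob/ob livers Irf1 -0.0387, Irf9 -0.50, Bst2 -0.21, Parp14 -0.50 and Rtp4 -0.40. The shift of all genes by -0.67 and -0.62 comes with that scaling by construction. DESeq2 called 12 members higher for the difference, beside 947 of the 14332 genes it tested (749 lower). With no filter on low counts 15 members were called higher for it, beside 1095 of 28566 genes (754 lower). That setting also called 5 members lower between the vector groups, beside 1421 of 28566 genes. The cause of these counts was not tested. With only the vector groups in the fit, 1 member was higher and 0 lower, beside 698 and 546 of 14287 genes, with fewer libraries behind the spread.

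Without each library in turn, the fasted median ran from -0.69 to -0.37 and the fasted lower calls from 13 to 19. Calls for the difference ran from 2 to 8, and those between the vector groups from 1 to 2 higher and 0 to 3 lower. Over all genes tested the same fits gave 3516 to 4633 lower in the fasted livers and 376 to 875 higher for the difference. Between the vector groups they gave 848 to 1872 genes higher and 793 to 1546 lower. Called members that kept their call without every single library were 15 of 21 in the fasted livers, 15 of 20 in the ob/ob livers, 2 of 7 for the difference and 1 of 4 between the vector groups. Same-numbered libraries correlated at -0.18 to 0.09 in their deviations from the group means, so the numbers are not read as pairs. With the replicate block 3 members rose and 16 fell in the fasted livers, beside 4113 and 4094 of 15228 genes. In the ob/ob livers 11 rose and 9 fell, beside 3905 and 4168 genes. For the difference 5 were higher and 0 lower, beside 664 and 472 genes. Between the vector groups 3 were higher and 1 lower, beside 1272 and 1173 genes. Of the values per member under all alternatives, 2494 kept direction and side of the threshold, 60 gained a call, 118 lost one, 92 changed sign without a call on either side, and 11 changed sign with a call.

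Depth limits the low members: Oas3 had 31 to 155 counts over the 3 libraries of a group.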
